A study of Mus musculus with 12 samples.

Results

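The inflammasome and interleukin-1 genes described here are 9 genes, Nlrp3, Pycard, Casp1, Casp4, Gsdmd, Il1a, Il1b, Il1rn and Il18, chosen by name from the 46262 genes of the deposited table. The abundances of each gene's transcripts were summed. All 9 were found, and all 9 passed the filter on low values, at least 1 TPM (a measure of transcript abundance scaled to transcript length and to the library total) in at least 3 of the 12 libraries. An inflammasome is a protein complex that answers a danger signal inside the cell by cleaving pro-interleukin-1β and pro-interleukin-18 and by cutting gasdermin D, which then forms membrane pores and can cause a lytic cell death called pyroptosis. NLRP3 senses the signal, ASC (encoded by Pycard) links it to caspase-1 (Casp1), and mouse caspase-11 (encoded by Casp4) responds to lipopolysaccharide inside the cell. Microglia are a main source of interleukin-1 in the brain, and in macrophages NF-κB signalling raises Nlrp3 and Il1b transcripts before the complex forms.

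RNA was sequenced from primary microglia of wild type (WT) mice, taken from mixed glial cultures of cerebellum or forebrain and kept for 24 h with IL-34 or CSF-1, which both bind the receptor CSF1R. The 4 groups were cerebellum with 100 ng/ml of IL-34, cerebellum with 20 ng/ml of CSF-1, forebrain with 100 ng/ml of IL-34 and forebrain with 20 ng/ml of CSF-1. Each group had 3 libraries, stated to come from separate mixed glial cultures. The name of the deposited table calls the cells neonatal microglia, and the sources used here give no age in days, strain or sex. Every group received a ligand and the doses differed, so ligand and dose cannot be told apart. No inflammasome trigger is named for any group, and transcripts were measured, not cleaved cytokines or caspase activity.

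The 8 microglial markers were detected in every library and summed to between 4876 and 5602 TPM. P2ry12 (7.10 to 11.7 TPM) and Tmem119 (7.15 to 20.4 TPM), markers of microglia in the intact brain, were low beside Cx3cr1 (234 to 368 TPM). Transcripts shorter than 600 nt made up 2.58, 3.31 and 0.947% of the TPM in the 3 cerebellar IL-34 libraries, against 0.0269 to 0.555% in the other 9 libraries, so these 3 libraries stood apart. Depth cannot be read from TPM, and in bulk samples fewer cells of a type and less RNA per cell cannot be told apart.

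The promoters of Nlrp3, Il1b and Il1rn are shown because the sensor, the cytokine and its antagonist are the genes whose results are followed in most detail, and because Nlrp3 and Il1rn were each read from more than 1 start. RefSeq (GRCm38.p6) gave promoters for 8 of the 9 genes, running from 250 bases before to 50 bases after each start. Capitals mark matches to 4 motifs, searched on both strands unless stated: GGG, any 3 bases and TTCC for NF-κB, TGANTCA for AP-1, GAGGAA for PU.1 (a factor that sets the macrophage lineage) and, on the gene strand alone, TATAAA for the TATA box. No matches overlapped each other in the windows shown. The later Nlrp3 start is in chr11:59542436-59542735 and the earlier one in chr11:59541319-59541618, both on the plus strand. Il1b is in chr2:129371090-129371389 on the minus strand. The upstream Il1rn start is in chr2:24336610-24336909 and the downstream one shown is in chr2:24345041-24345340, both on the plus strand. RefSeq gave a further downstream Il1rn start, whose window (chr2:24345121-24345420) overlaps the one before it and is not shown.
Nlrp3, later start: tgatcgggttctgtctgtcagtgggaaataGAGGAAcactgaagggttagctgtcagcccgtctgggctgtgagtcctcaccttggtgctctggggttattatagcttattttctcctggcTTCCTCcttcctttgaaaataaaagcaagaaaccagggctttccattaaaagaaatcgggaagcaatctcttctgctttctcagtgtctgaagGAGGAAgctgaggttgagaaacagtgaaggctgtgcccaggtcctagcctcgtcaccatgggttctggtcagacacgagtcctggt
Nlrp3, earlier start: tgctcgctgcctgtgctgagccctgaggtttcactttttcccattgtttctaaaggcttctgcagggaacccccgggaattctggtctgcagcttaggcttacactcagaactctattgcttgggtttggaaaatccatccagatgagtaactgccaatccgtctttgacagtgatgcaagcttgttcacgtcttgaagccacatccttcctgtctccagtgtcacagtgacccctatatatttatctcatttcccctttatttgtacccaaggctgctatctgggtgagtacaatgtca
Il1b: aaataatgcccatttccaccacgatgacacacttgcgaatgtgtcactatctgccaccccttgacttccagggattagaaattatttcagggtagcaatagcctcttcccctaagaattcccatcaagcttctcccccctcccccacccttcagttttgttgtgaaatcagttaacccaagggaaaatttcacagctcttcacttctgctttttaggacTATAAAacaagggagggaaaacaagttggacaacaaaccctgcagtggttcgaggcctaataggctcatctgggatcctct
Il1rn, upstream start: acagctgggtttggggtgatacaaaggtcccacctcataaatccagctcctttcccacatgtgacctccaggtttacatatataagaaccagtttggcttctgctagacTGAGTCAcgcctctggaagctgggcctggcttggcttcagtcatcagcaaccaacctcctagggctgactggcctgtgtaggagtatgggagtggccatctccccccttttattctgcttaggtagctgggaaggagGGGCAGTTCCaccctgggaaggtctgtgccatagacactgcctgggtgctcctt
Il1rn, downstream start: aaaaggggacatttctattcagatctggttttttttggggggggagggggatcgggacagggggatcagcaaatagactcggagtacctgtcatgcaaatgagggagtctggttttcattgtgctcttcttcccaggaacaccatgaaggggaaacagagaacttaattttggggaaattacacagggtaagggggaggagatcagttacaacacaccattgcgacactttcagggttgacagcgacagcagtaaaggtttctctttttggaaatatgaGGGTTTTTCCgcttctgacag
The later Nlrp3 window held 3 PU.1 matches, beginning at -220, -129 and -36 from the start, and the earlier window held none of the 4 motifs. The Il1b window held a TATA box at -31. Both Il1rn windows shown held an NF-κB match, at -4 in the upstream window and 30 in the downstream one, and the upstream window also held an AP-1 match at -141. Counted from the further downstream Il1rn start, the match of the downstream window begins at -51. Among 32851 promoters of the same length, 28.3% held the PU.1 letters, 8.32% the TATA box, 5.56% the NF-κB letters and 7.81% the AP-1 letters. These are matches of letters, not measured binding.

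In GENCODE M21 (GRCm38) the genes lie on 5 chromosomes. Nlrp3 is at chr11:59541568-59566956, Pycard at chr7:127989708-127993867 and Gsdmd at chr15:75862327-75867408. Casp1 (chr9:5298517-5307265) and Casp4 (chr9:5308828-5336783) are neighbours 1562 nt apart, with Il18 elsewhere on the same chromosome (chr9:50554827-50581840). Il1a (chr2:129299610-129309972) and Il1b (chr2:129364570-129371139) lie 54597 nt apart, and Il1rn is elsewhere on that chromosome (chr2:24336853-24351494).

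In levels averaged over the 12 libraries, the protease and the pore former led and the interleukin-1 cytokines came last. Casp1 (124 TPM) and Gsdmd (116 TPM) were highest, and Casp1 exceeded Gsdmd in 8 of 12 libraries. Il1rn followed at 47.4 TPM, below Gsdmd and above Casp4 (38.2 TPM) in 12 of 12. Pycard (32.8 TPM), Il18 (26.3 TPM) and Nlrp3 (22.9 TPM) were not cleanly ordered, since Pycard exceeded Il18 in 6 of 12 libraries and Il18 exceeded Nlrp3 in 9 of 12. Il1b averaged 5.88 TPM, below Nlrp3 in 12 of 12 libraries, and Il1a 3.89 TPM, below Il1b in 10 of 12. Among the 12419 genes tested, these mean levels stood at percentile 89.3 for Casp1, 53.6 for Nlrp3, 27.1 for Il1b and 21.5 for Il1a.

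**Figure D1:**
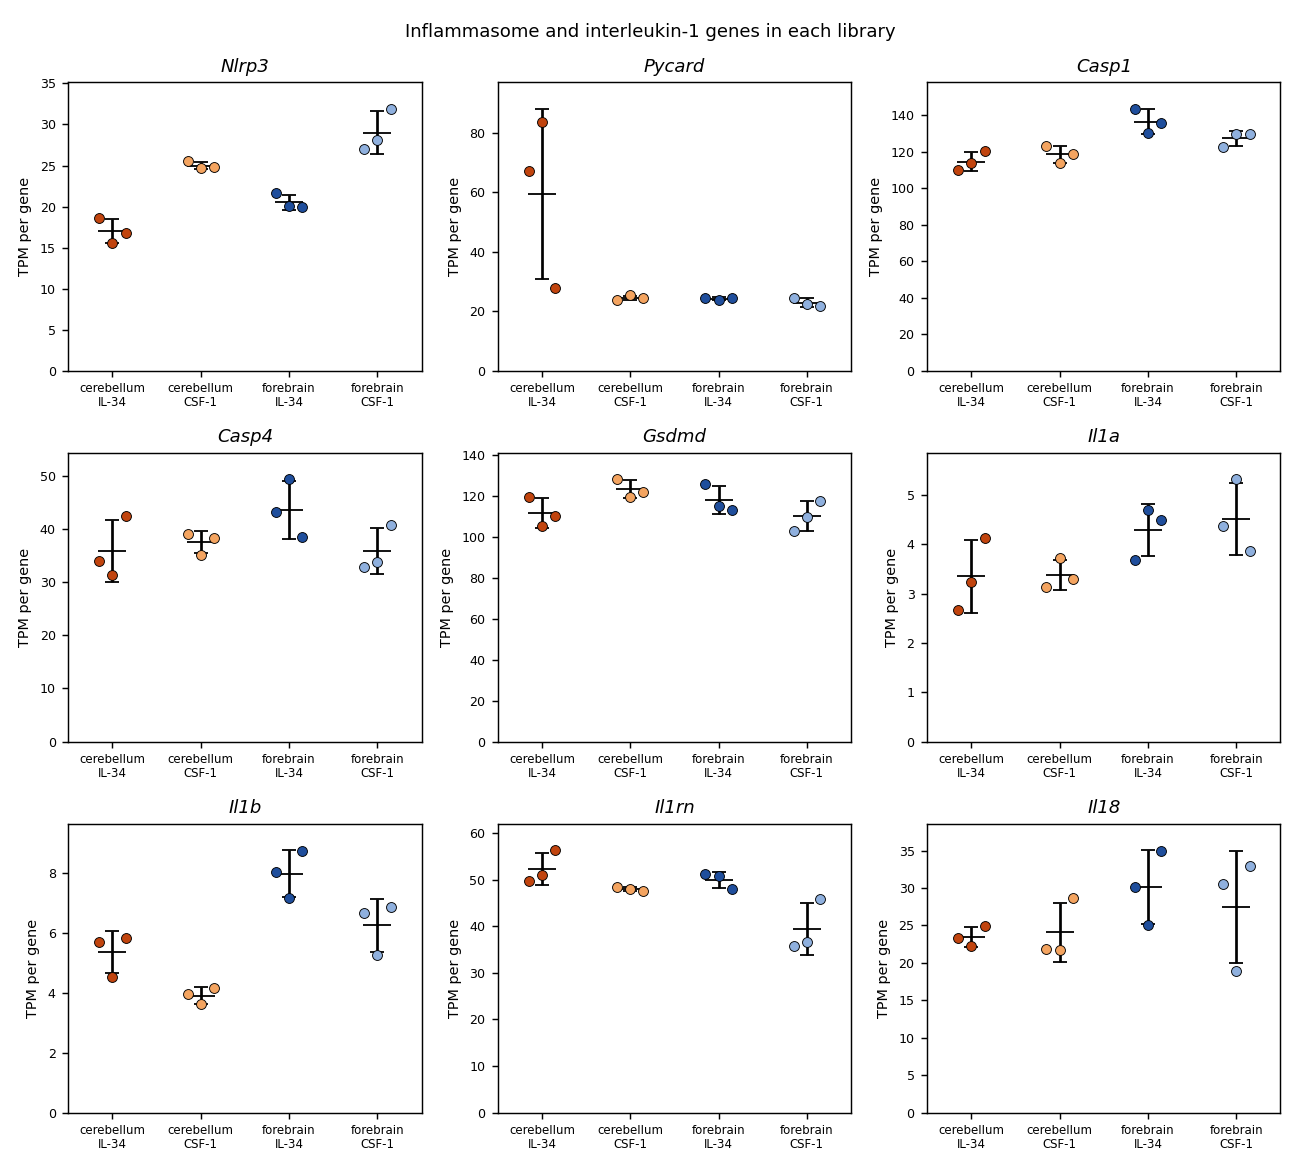
TPM per gene in each library (points), with the mean and SD of each group (bars; n = 3), for cerebellum IL-34, cerebellum CSF-1, forebrain IL-34 and forebrain CSF-1. Nlrp3 sits lower under IL-34 in both regions, Il1b sits lower in cerebellum than in forebrain under the same ligand, and Pycard is high in 2 cerebellar IL-34 libraries.

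The study's design asks how IL-34 and CSF-1 differ in each region. With IL-34 as against CSF-1, Nlrp3 fell in both regions, the one gene of the 9 that passed the test in both. Over both regions Il1b rose by 0.34 and Il1rn by 0.23 on the log2 scale. Casp1, Casp4, Gsdmd, Il1a and Il18 did not pass for ligand in either region or over both. In cerebellum 2 of the 9 genes passed, Nlrp3 lower and Pycard higher, where 12.8% of all genes tested passed in either direction. In forebrain 1 of 9 passed, where 1.2% of all genes did, and over both regions 3 of 9 passed, where 13.4% did. The 3 IL-34 and 3 CSF-1 libraries did not overlap for 4 of the 9 genes in cerebellum, where 36.2% of all genes were so separated, and for 4 of 9 in forebrain, where 18.5% were. The median log2 difference over both regions was 0.07 for the 9 genes and -0.07 for all genes tested.

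Nlrp3, the sensor, had 18.6, 15.6 and 16.8 TPM in cerebellum under IL-34, against 25.6, 24.7 and 24.8 TPM in cerebellum under CSF-1. In forebrain it had 21.6, 20.0 and 20.0 TPM with IL-34, against 27.0, 28.1 and 31.9 TPM with CSF-1. Every IL-34 library lay below every CSF-1 library, also across regions. The log2 difference, on the log2(TPM + 1) scale like all differences below, was -0.53 in cerebellum (SE 0.08; limma adjusted p = 0.00472) and -0.48 in forebrain (SE 0.08; limma adjusted p = 0.0201). Over both regions it was -0.51 (SE 0.06; limma adjusted p = 0.000513), a fitted fold of 0.705. The difference between the regions in this response was -0.06 (95% interval -0.31 to 0.20; limma adjusted p = 0.867), so no difference in response was detected within that interval. The forebrain call was lost without IL-34 replicate 2 or 3 (limma adjusted p = 0.112 and 0.0749), without CSF-1 replicate 2 or 3 (0.0669 and 0.0783), and with the forebrain libraries fitted alone (0.134). In cerebellum and over both regions it held in all 12 fits with 1 library left out.

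Both Nlrp3 transcripts with a sizeable share encode the same 1033 codons and begin 1118 nt apart, near the RefSeq starts shown above. The share of the transcript from the later start (4021 nt; the other is 3933 nt) ranged from 14.1 to 66.0% of the gene over the 12 libraries, with a median of 43.8%. Libraries of 1 group differed widely, so the summed gene level is the steadier measure. In forebrain under CSF-1, for example, the transcript from the later start had 16.9, 18.5 and 4.49 TPM, while the gene had 27.0, 28.1 and 31.9 TPM. As a ratio to Casp1, its downstream protease, Nlrp3 stood at 0.168, 0.137 and 0.140 in cerebellum under IL-34, against 0.207, 0.216 and 0.209 in cerebellum under CSF-1. The same ratio was 0.150, 0.154 and 0.147 in forebrain under IL-34, against 0.220, 0.216 and 0.246 in forebrain under CSF-1. All IL-34 ratios lay below all CSF-1 ratios, and under IL-34 the cerebellar range enclosed the forebrain range.

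**Figure D2:**
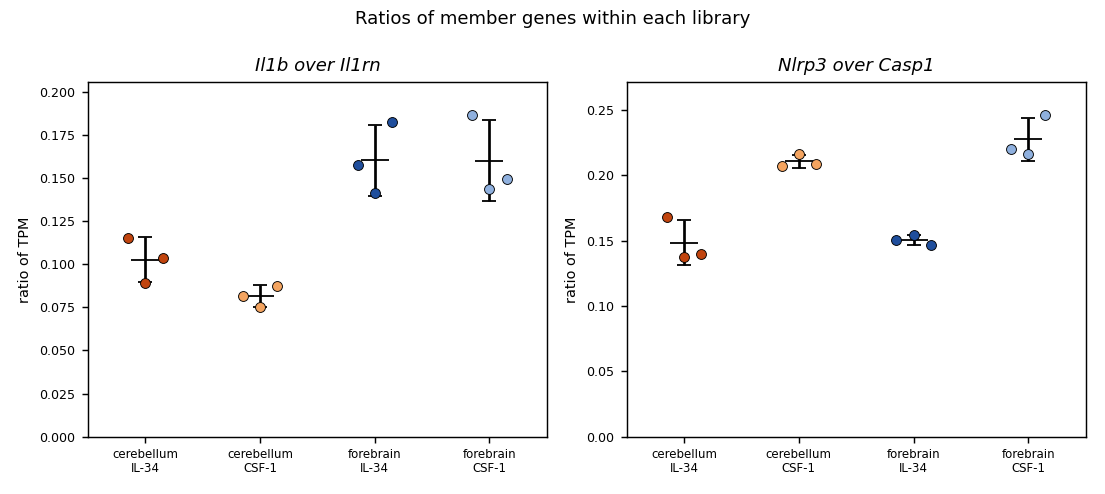
Ratio of TPM within each library (points), with the mean and SD of each group (bars; n = 3), for Il1b over Il1rn (left) and Nlrp3 over Casp1 (right). The left ratio separates cerebellum (0.0753 to 0.115) and forebrain (0.141 to 0.187), and the right ratio separates IL-34 (0.137 to 0.168) and CSF-1 (0.207 to 0.246).

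Pycard, the adaptor ASC, had 67.1, 83.6 and 28.0 TPM in cerebellum under IL-34, against 23.8, 25.3 and 24.3 TPM in cerebellum under CSF-1. Its forebrain levels were 24.5, 23.8 and 24.5 TPM with IL-34, against 24.5, 22.5 and 21.7 TPM with CSF-1. Only 2 of the 12 libraries, cerebellar IL-34 replicates 1 and 2, were far from the rest. The cerebellar difference between ligands was 1.11 (SE 0.29; limma adjusted p = 0.0338), and the difference between cerebellum and forebrain under IL-34 was 1.12 (SE 0.29; limma adjusted p = 0.0274).

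Most of the Pycard level in both libraries, 59.8 and 69.2%, was assigned to 1 short transcript. The Pycard transcript of 493 nt had 40.1, 57.9 and 0 TPM in the cerebellar IL-34 libraries and was listed at 0 in the other 9. The Pycard transcript of 3800 nt had 27.0, 25.8 and 28.0 TPM in cerebellum under IL-34, against 23.8, 25.3 and 24.3 TPM in cerebellum under CSF-1. With transcripts of 1000 nt or more, neither Pycard difference passed: the ligand difference in cerebellum was 0.13 (limma adjusted p = 0.158) and the region difference under IL-34 was 0.14 (limma adjusted p = 0.145). With trends in transcript length and GC content also removed, they were 0.29 (limma adjusted p = 0.0147) and 0.23 (limma adjusted p = 0.0328), which passed. Cerebellar IL-34 replicates 1 and 2 also held the highest share of TPM in transcripts under 600 nt of all 12 libraries, and the part of this in the Pycard value was not tested. Without cerebellar IL-34 replicate 1 the ligand difference was 0.96 (limma adjusted p = 0.103), and without replicate 2 it was 0.80 (limma adjusted p = 0.116). It was also lost without any 1 of the 3 cerebellar CSF-1 libraries (limma adjusted p = 0.0678 to 0.0953), as was the region difference without either of the same IL-34 replicates or any forebrain IL-34 library (limma adjusted p = 0.0666 to 0.0972). Fitting the compared libraries alone ended both calls (limma adjusted p = 0.107 and 0.0956), as did dropping the filter on low values (0.0892 and 0.0798). The averages over both regions (0.60; limma adjusted p = 0.0778) and over both ligands (0.61; 0.0587) did not pass. They passed without cerebellar IL-34 replicate 3 (0.83 and 0.84; limma adjusted p = 5.72e-05 and 1.98e-05), the cerebellar IL-34 library with the short transcript listed at 0, and with length and GC trends removed (0.21 and 0.15; 0.00953 and 0.0377).

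**Figure D3:**
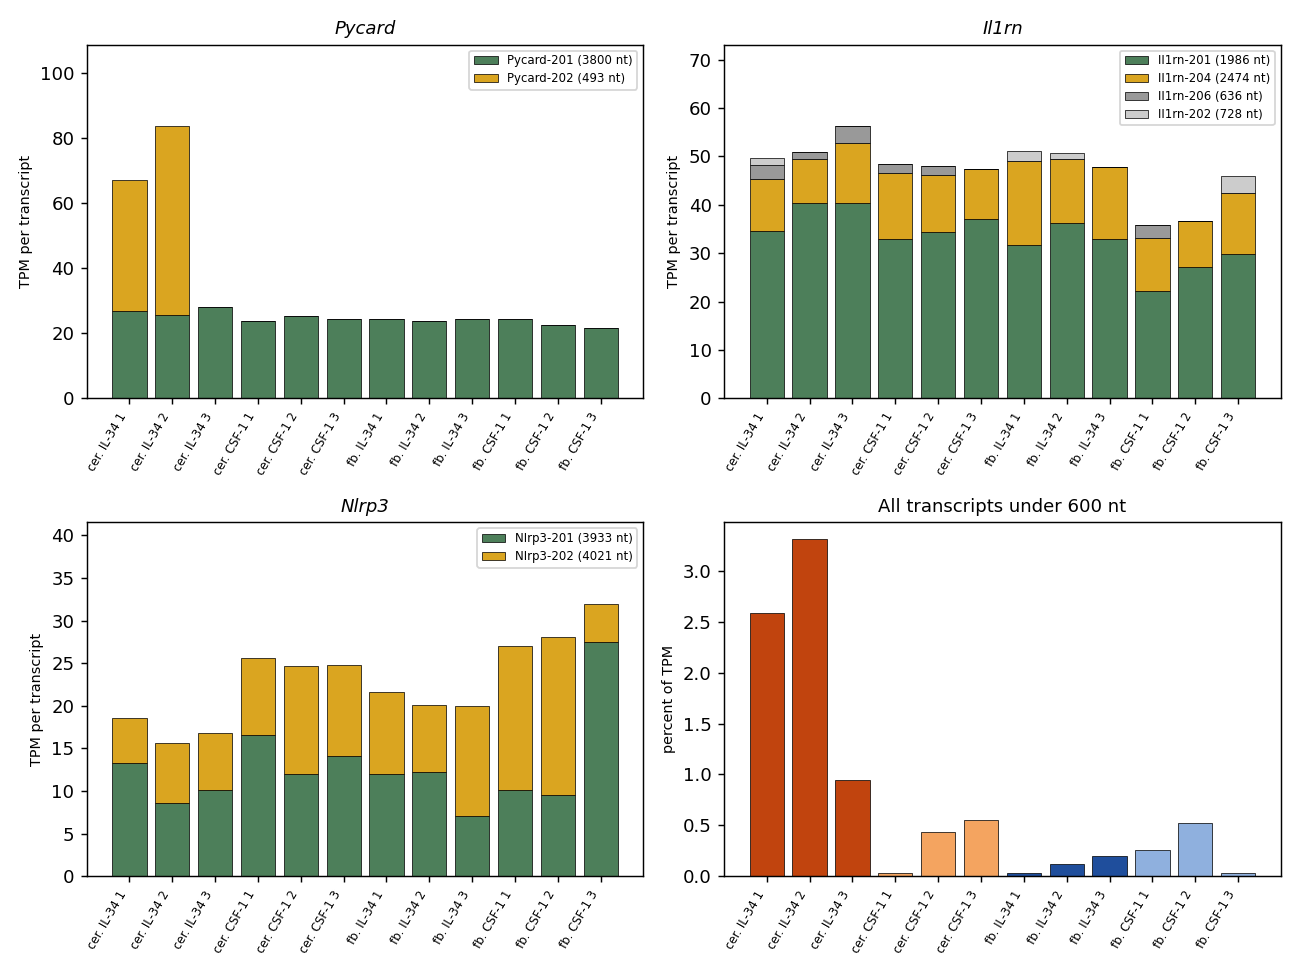
TPM per transcript of Pycard, Il1rn and Nlrp3 stacked in each of the 12 libraries (cer., cerebellum; fb., forebrain), and the percentage of TPM in all transcripts under 600 nt. The Pycard transcript of 493 nt appears only in cerebellar IL-34 replicates 1 and 2, which also have the highest share of short transcripts, 2.58 and 3.31%.

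Casp1, the protease that matures interleukin-1β, did not pass for ligand. It had 110.2, 114 and 120.3 TPM in cerebellum under IL-34, against 123, 114 and 119 TPM in cerebellum under CSF-1, and the ranges overlapped. In forebrain it had 144, 130.2 and 136 TPM with IL-34, against 123, 129.9 and 129.6 TPM with CSF-1, which did not overlap by a narrow margin. The ligand difference over both regions was 0.02 (95% interval -0.06 to 0.11; limma adjusted p = 0.712). With median-of-ratios scaling it passed at 0.10 (limma adjusted p = 0.0471). Casp4, which also cuts gasdermin D, averaged 35.9 ± 5.79 TPM in cerebellum under IL-34, 37.5 ± 2.06 TPM in cerebellum under CSF-1, 43.6 ± 5.43 TPM in forebrain under IL-34 and 35.8 ± 4.31 TPM in forebrain under CSF-1 (SD, n = 3 each). Its ligand difference was -0.07 in cerebellum (95% interval -0.35 to 0.20; limma adjusted p = 0.724) and 0.28 in forebrain (95% interval 0.003 to 0.55), which did not pass after adjustment (limma adjusted p = 0.345). The ligand ranges of Casp4 overlapped in both regions.

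The coding Casp4 transcript of 1435 nt carried a median of 49.8% of the Casp4 level (42.3 to 68.0% over the 12 libraries), and the retained-intron transcripts of 752 and 1614 nt carried medians of 27.1 and 15.8%. A Casp4 transcript of 871 nt annotated to nonsense-mediated decay varied widely between libraries of 1 group, at 9.98, 1.74 and 22.03% of the gene in cerebellum under IL-34, against 3.55, 0 and 16.3% in cerebellum under CSF-1. Gsdmd, which encodes the pore former, averaged 112 ± 7.30 TPM in cerebellum under IL-34, 123 ± 4.36 TPM in cerebellum under CSF-1, 118 ± 6.78 TPM in forebrain under IL-34 and 110.2 ± 7.40 TPM in forebrain under CSF-1 (SD, n = 3 each). Its ligand difference was -0.14 in cerebellum (limma adjusted p = 0.18) and 0.10 in forebrain (limma adjusted p = 0.573), and the ligand ranges overlapped in both regions. The difference between those responses was -0.24 (95% interval -0.45 to -0.03) and did not pass after adjustment (limma adjusted p = 0.364). In that comparison of responses limma called 0 of the 9 genes, where 0.145% of all genes were called. At an unadjusted p under 0.05, 2 of the 9 passed, Pycard and Gsdmd. Without cerebellar IL-34 replicate 3 alone, Pycard was called (1.49; limma adjusted p = 0.000175).

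Il1b had 5.72, 4.55 and 5.83 TPM in cerebellum under IL-34, against 3.95, 3.62 and 4.16 TPM in cerebellum under CSF-1. Forebrain levels were 8.05, 7.18 and 8.73 TPM with IL-34, against 6.69, 5.26 and 6.86 TPM with CSF-1. Within each region every IL-34 library was above every CSF-1 library. The difference was 0.37 in cerebellum (SE 0.13; limma adjusted p = 0.0754) and 0.31 in forebrain (SE 0.13; limma adjusted p = 0.288), and neither passed. The cerebellar difference passed with median-of-ratios scaling (0.46; limma adjusted p = 0.0429) and with length and GC trends removed (0.40; 0.0222). Over both regions it was 0.34 (SE 0.09; limma adjusted p = 0.0302), which passed. This call was lost without cerebellar IL-34 replicate 1 or 3, cerebellar CSF-1 replicate 1 or 2, forebrain IL-34 replicate 3 or forebrain CSF-1 replicate 2 (limma adjusted p = 0.0553 to 0.0748). It was also lost with no filter on low values (limma adjusted p = 0.0688).

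Il1a, a cytokine active without caspase-1 cleavage, had 2.67, 3.24 and 4.14 TPM in cerebellum under IL-34, against 3.13, 3.72 and 3.30 TPM in cerebellum under CSF-1. In forebrain it had 3.69, 4.70 and 4.48 TPM with IL-34, against 4.37, 5.31 and 3.88 TPM with CSF-1. The ligand ranges overlapped in both regions, and the difference over both was -0.04 (95% interval -0.28 to 0.19; limma adjusted p = 0.831). Il18 had 23.3, 22.3 and 24.9 TPM in cerebellum under IL-34, against 21.9, 21.7 and 28.6 TPM in cerebellum under CSF-1. In forebrain Il18 had 30.2, 25.1 and 35.0 TPM with IL-34, against 30.5, 18.9 and 32.9 TPM with CSF-1. These ranges overlapped too, and the difference over both regions was 0.07 (95% interval -0.23 to 0.36; limma adjusted p = 0.78). The interleukin-18 values rest on 1 transcript of 702 nt.

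Il1rn encodes the interleukin-1 receptor antagonist, which occupies the receptor without signalling. It had 49.7, 51.1 and 56.3 TPM in cerebellum under IL-34, against 48.5, 48.1 and 47.5 TPM in cerebellum under CSF-1. Forebrain cultures had 51.1, 50.7 and 47.9 TPM with IL-34, against 35.8, 36.6 and 45.9 TPM with CSF-1. The ligands did not overlap in either region, and forebrain CSF-1 replicate 3 lay nearest to the IL-34 libraries. The difference was 0.12 in cerebellum (SE 0.09; limma adjusted p = 0.38) and 0.34 in forebrain (SE 0.09; limma adjusted p = 0.0959), and over both regions it passed at 0.23 (SE 0.06; limma adjusted p = 0.0332). That call held in only 2 of 12 fits with 1 library left out, those without replicate 1 of cerebellar IL-34 (0.0437) or replicate 3 of forebrain CSF-1 (0.0057), and was lost without any 1 of the other 10 (limma adjusted p = 0.0504 to 0.0775). It was also lost with no filter on low values (limma adjusted p = 0.0694). The forebrain difference was called without forebrain CSF-1 replicate 3 (0.45; limma adjusted p = 0.0263), with median-of-ratios scaling (0.39; 0.0288), with transcripts of 1000 nt or more (0.38; 0.0175) and with length and GC trends also removed (0.40; 0.00284).

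Most Il1rn signal came from a transcript that begins near the downstream starts. The Il1rn transcript of 1986 nt, with 178 codons, carried 73.3 ± 4.94% of the gene in cerebellum under IL-34, 72.4 ± 5.03% in cerebellum under CSF-1, 67.4 ± 4.79% in forebrain under IL-34 and 67.1 ± 6.28% in forebrain under CSF-1 (SD, n = 3 each). The Il1rn transcript of 2474 nt, with 159 codons and a start 8457 nt further upstream, carried 20.7 ± 2.33% in cerebellum under IL-34, 24.9 ± 2.99% in cerebellum under CSF-1, 30.4 ± 4.08% in forebrain under IL-34 and 28.1 ± 2.47% in forebrain under CSF-1. The 2 transcripts therefore kept their order in all 4 groups.

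Regions were compared under each ligand. Il1b fell in cerebellum relative to forebrain under each ligand, and Casp1 fell under IL-34. Over both ligands Il1b, Nlrp3 and Casp1 fell. Casp4, Gsdmd, Il1a, Il1rn and Il18 passed in no comparison of regions with all 12 libraries and no other scaling or length limit. Under IL-34 3 of the 9 genes passed, Il1b and Casp1 lower and Pycard higher as above, where 13.5% of all genes passed. Under CSF-1 1 of 9 passed, where 6.71% of all genes did, and over both ligands 3 of 9 passed, where 20.1% did. The 3 cerebellar and 3 forebrain libraries did not overlap for 5 of the 9 genes under IL-34, where 32.9% of all genes were so separated, and for 5 of 9 under CSF-1, where 29.4% were. The median difference over both ligands was -0.18 for the 9 genes and 0.01 for all genes tested. These comparisons use the same 12 libraries as the ligand comparisons.

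Il1b averaged 5.37 ± 0.710 TPM in cerebellum and 7.99 ± 0.780 TPM in forebrain under IL-34 (SD, n = 3 each). Under CSF-1 it averaged 3.91 ± 0.274 TPM in cerebellum and 6.27 ± 0.883 TPM in forebrain. The libraries of the 2 regions overlapped under neither ligand. The log2 difference was -0.50 under IL-34 (SE 0.13; limma adjusted p = 0.0253), -0.56 under CSF-1 (SE 0.13; limma adjusted p = 0.0245) and -0.53 over both (SE 0.09; limma adjusted p = 0.00218), a fitted fold of 0.693. Over both ligands it held in all 12 fits with 1 library left out. Under IL-34 it was lost without cerebellar IL-34 replicate 2 or forebrain IL-34 replicate 1 or 3 (limma adjusted p = 0.0638 to 0.0995), and under CSF-1 without cerebellar CSF-1 replicate 1 or 2 or forebrain CSF-1 replicate 1 or 3 (0.0656 to 0.0924). Under each ligand it was also lost with the compared libraries fitted alone (0.0572 and 0.0679) and with no filter on low values (0.058 and 0.057).

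Against its antagonist, Il1b stood at 0.115, 0.0891 and 0.104 of the Il1rn level in cerebellum under IL-34, against 0.157, 0.141 and 0.182 in forebrain under IL-34. With CSF-1 the ratio was 0.0816, 0.0753 and 0.0876 in cerebellum, against 0.187, 0.144 and 0.150 in forebrain. Every cerebellar ratio was below every forebrain ratio. In cerebellum the IL-34 ratios all lay above the CSF-1 ratios, and in forebrain the ratios of the 2 ligands overlapped. Il1rn itself differed between cerebellum and forebrain by 0.07 under IL-34 (limma adjusted p = 0.659) and 0.29 under CSF-1 (limma adjusted p = 0.0784). Over both ligands Il1rn differed by 0.18 (limma adjusted p = 0.0688). Without forebrain CSF-1 replicate 3 the Il1rn difference was called under CSF-1 (0.40; limma adjusted p = 0.0106) and over both ligands (0.23; 0.00751). It was also called with transcripts of 1000 nt or more (0.32; limma adjusted p = 0.0174 under CSF-1, and 0.17; 0.0406 over both) and with length and GC trends also removed (0.35; 0.00293 under CSF-1, and 0.25; 0.00132 over both). With median-of-ratios scaling it was called over both ligands (0.18; limma adjusted p = 0.0371).

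Nlrp3 differed between cerebellum and forebrain by -0.26 under IL-34 (SE 0.08; limma adjusted p = 0.0564) and -0.20 under CSF-1 (SE 0.08; limma adjusted p = 0.165), and by -0.23 over both (SE 0.06; limma adjusted p = 0.0163), which passed. The libraries of the regions did not overlap under either ligand, and the combined call held in all 12 fits with 1 library left out. The Nlrp3 difference under IL-34 was called with median-of-ratios scaling (limma adjusted p = 0.0441), quantile normalization (0.024), transcripts of 1000 nt or more (0.0331), length and GC trends removed (0.0161), and without cerebellar IL-34 replicate 1 (0.0434) or forebrain CSF-1 replicate 3 (0.044). Under CSF-1 it was called with the trends removed (-0.28; limma adjusted p = 0.0117).

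Casp1 differed by -0.25 under IL-34 (SE 0.06; limma adjusted p = 0.0136) and -0.18 over both ligands (SE 0.04; limma adjusted p = 0.00971). Under IL-34 the call was lost without cerebellar IL-34 replicate 1 or 2 (0.0518 and 0.0529) and with the compared libraries fitted alone (0.0524). With trends in transcript length and GC content removed, both Casp1 differences were near 0, at -0.02 under IL-34 (limma adjusted p = 0.78) and 0.00 over both (limma adjusted p = 0.927). The Nlrp3 and Il1b regional differences over both ligands kept their calls under that correction. Il1a differed by -0.31 over both ligands (limma adjusted p = 0.0637) and Il18 by -0.24 (limma adjusted p = 0.229). The Il1a difference was called with quantile normalization (-0.32; limma adjusted p = 0.0482), with transcripts of 1000 nt or more (-0.31; 0.0316) and without cerebellar IL-34 replicate 3 (-0.37; 0.0275), and that of Il18 without forebrain CSF-1 replicate 2 (-0.36; 0.0293). Casp4 was called under IL-34 without cerebellar IL-34 replicate 3 (-0.40; limma adjusted p = 0.0468), and Gsdmd under CSF-1 with the trends removed (0.16; 0.0294).

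Summed levels of markers of other cells also separated the regions. The 8 astrocyte markers, 6 of them detected at 1 TPM in at least 3 libraries, summed to 12.5 to 13.3 TPM in cerebellum under IL-34 and 13.6 to 15.4 TPM in cerebellum under CSF-1, against 20.9 to 25.3 TPM in forebrain under IL-34 and 22.9 to 24.2 TPM in forebrain under CSF-1. The 8 markers of other myeloid cells summed to 24.8 to 28.9 and 29.4 to 31.6 TPM in the same cerebellar groups, against 35.0 to 39.0 and 37.5 to 42.2 TPM in the forebrain groups, nearly all of it Mrc1 (24.0 to 40.7 TPM). The neutrophil genes S100a8 and S100a9 were at 0 in all 12 libraries, and Ccr2, a monocyte receptor, reached at most 0.867 TPM. Neuronal markers, 1 of 6 of them detected at 1 TPM in at least 3 libraries, summed to 0.381 to 0.726 and 0.973 to 1.298 TPM in the cerebellar groups, against 2.001 to 3.58 and 1.74 to 4.58 TPM in the forebrain groups. Mesenchymal and endothelial markers, 2 of 7 detected and Cldn5 at 0 in all libraries, summed to 3.81 to 4.86 and 4.98 to 6.13 TPM in the cerebellar groups, against 8.59 to 10.6 and 7.83 to 13.0 TPM in the forebrain groups. The sum over the 8 markers of the oligodendrocyte lineage went the other way, at 72.1 to 78.9 and 88.3 to 97.2 TPM in the cerebellar groups, against 55.8 to 62.0 and 57.0 to 69.7 TPM in the forebrain groups. Nearly all of it was Mbp (36.6 to 72.4 TPM) and Cspg4 (12.01 to 23.9 TPM), and 4 of the 8 were detected. These sums also separated the ligands in cerebellum, where each was lower under IL-34, and overlapped between ligands in forebrain. The microglial markers did so too, at 4925 to 5188 TPM in cerebellum under IL-34, against 5356 to 5602 TPM in cerebellum under CSF-1. The part of these cells in the regional differences and in the cerebellar ligand differences was not tested.

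The rest of the pathway was followed with 53 further genes, of which 36 passed the filter on low values. The other 17 reached at most 1.76 TPM in any library, among them Il1r1, the signalling receptor of interleukin-1 (at most 0.459 TPM). Of these 17, 4 ligand genes of the interleukin-1 family were listed at 0 in all libraries. Between ligands, limma called 1 gene higher and 3 lower in cerebellum, and 1 higher and 2 lower over both regions. In forebrain it called 0 of 36, with 6 at an unadjusted p under 0.05, and in the comparison of responses 0 of 36, with 5 at an unadjusted p under 0.05. The share of all genes at that unadjusted level is not given here. Between regions, 2 were higher and 6 lower under IL-34, 1 higher and 2 lower under CSF-1, and 4 higher and 8 lower over both ligands. Between ligands the share called was 11.1% of the 36 in cerebellum, beside 12.8% of all genes, and 8.33% over both regions, beside 13.4%. In forebrain and in the comparison of responses it was 0%, beside 1.2 and 0.145% of all genes. Between regions it was 22.2% under IL-34, beside 13.5% of all genes, 8.33% under CSF-1, beside 6.71%, and 33.3% over both ligands, beside 20.1%.

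Txnip, whose product binds thioredoxin and has been linked to NLRP3 activation, fell with IL-34 in cerebellum and over both regions. It had 100.1, 89.2 and 92.3 TPM in cerebellum under IL-34, against 136, 127 and 125 TPM in cerebellum under CSF-1. Its forebrain values were 117, 107 and 106 TPM with IL-34, against 114, 124 and 133 TPM with CSF-1. The libraries were separate in cerebellum and overlapped in forebrain. Its difference was -0.46 in cerebellum (SE 0.07; limma adjusted p = 0.00487) and -0.31 over both regions (SE 0.05; limma adjusted p = 0.00346), and both held in all 12 fits with 1 library left out. In forebrain the Txnip difference was -0.16 (SE 0.07; limma adjusted p = 0.321), which did not pass. Ninj1, which ruptures the membrane at the end of pyroptosis, rose by 0.16 over both regions (SE 0.04; limma adjusted p = 0.0318), a call that held in 5 of 12 such fits.

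Il18bp, a secreted protein that neutralises interleukin-18, fell in cerebellum relative to forebrain. It had 5.23, 6.88 and 5.88 TPM in cerebellum under IL-34, against 11.0, 12.7 and 12.1 TPM in forebrain under IL-34. With CSF-1 it had 4.47, 5.75 and 5.89 TPM in cerebellum, against 8.66, 10.7 and 11.1 TPM in forebrain. All 6 cerebellar libraries lay below all 6 forebrain libraries. The difference was -0.89 under IL-34 (SE 0.13; limma adjusted p = 0.00179), -0.81 under CSF-1 (SE 0.13; limma adjusted p = 0.00445) and -0.85 over both (SE 0.09; limma adjusted p = 0.000112), and each call held in all 12 fits with 1 library left out. Il18 itself, as given above, did not pass between regions.

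**Figure D4:**
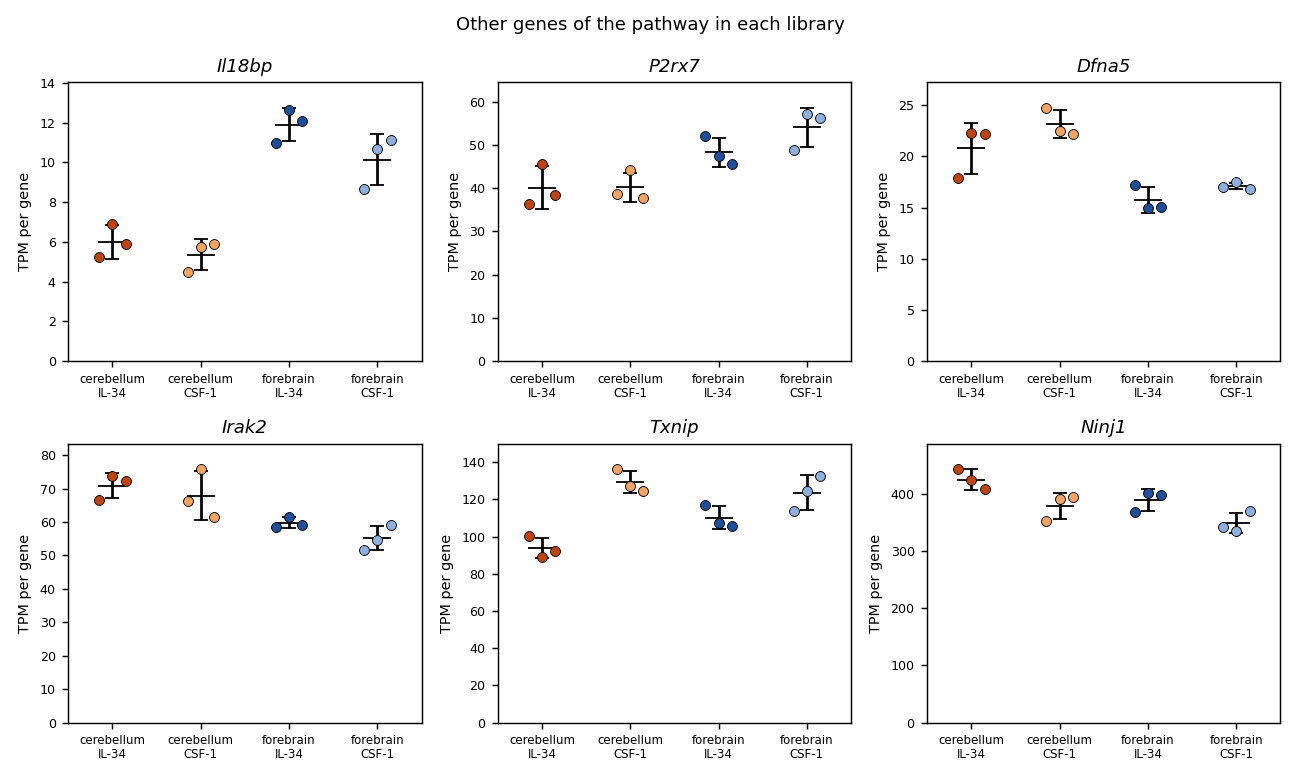
TPM per gene in each library (points), with the mean and SD of each group (bars; n = 3), for 6 further genes of the pathway. Il18bp and P2rx7 sit lower and Dfna5 and Irak2 higher in cerebellum than in forebrain, Txnip sits lower with IL-34 in cerebellum, and Ninj1 differs by 0.16 (log2) between ligands over both regions.

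P2rx7, the ATP-gated channel that triggers NLRP3 through potassium loss, was also lower in cerebellum. It had 36.4, 45.7 and 38.3 TPM in cerebellum under IL-34, against 51.9, 47.4 and 45.5 TPM in forebrain under IL-34. With CSF-1 it had 38.7, 44.1 and 37.7 TPM in cerebellum, against 48.8, 57.1 and 56.2 TPM in forebrain. The regions overlapped narrowly under IL-34 and were separate under CSF-1. The P2rx7 difference was -0.42 under CSF-1 (limma adjusted p = 0.0303), which passed, and -0.26 under IL-34 (limma adjusted p = 0.103), which did not. The difference over both ligands was -0.34 (SE 0.07; limma adjusted p = 0.00672), held in all 12 fits with 1 library left out. Panx1, the ATP-releasing channel, rose by 0.22 (SE 0.07; limma adjusted p = 0.0438), held in 2 of 12. It did not pass under IL-34 alone (limma adjusted p = 0.0666) or CSF-1 alone (limma adjusted p = 0.415).

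Among execution genes, Dfna5 (gasdermin E), another pore former of the gasdermin family, rose in cerebellum, while Casp8, an initiator caspase, fell. Dfna5 had 17.9, 22.3 and 22.2 TPM in cerebellum under IL-34, against 17.2, 14.9 and 15.1 TPM in forebrain under IL-34, and 24.8, 22.5 and 22.2 TPM in cerebellum under CSF-1, against 17.0, 17.5 and 16.8 TPM in forebrain under CSF-1. The regions were separate under each ligand. Over both ligands the differences were 0.40 for Dfna5 (SE 0.07; limma adjusted p = 0.00206) and -0.18 for Casp8 (SE 0.04; limma adjusted p = 0.0153). In signalling, Irak2, a kinase downstream of the interleukin-1 receptor, rose by 0.27 (SE 0.06; limma adjusted p = 0.00769). Each of these 3 calls held in all 12 fits with 1 library left out. Il1rap, the accessory chain of the receptor, differed by -0.21 (SE 0.06; limma adjusted p = 0.0413), held in 2 of 12. Taken by ligand, Dfna5 passed under IL-34 and CSF-1 (limma adjusted p = 0.0237 and 0.0245). Casp8 (limma adjusted p = 0.0789 and 0.11) and Irak2 (0.0688 and 0.0525) passed under neither. Il1rap passed under IL-34 (limma adjusted p = 0.0444) and not under CSF-1 (limma adjusted p = 0.531).

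Across the 12 libraries, the 3 genes whose log2(TPM + 1) followed Nlrp3 most closely, among 8823 genes with a mean of at least 5 TPM, were Tubb2a (Pearson r = 0.989), Ckb (0.989) and Gnb2 (0.987). Those of Il1b were Cbr1 (0.955), Sod2 (0.954) and Ifit3 (0.953), and those of Il1rn were Cebpg (0.945), Ralgds (0.902) and Csf2rb2 (0.889). These values describe 12 libraries that share 4 group means and the short-transcript difference named above.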

How the data were processed

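The deposited table holds TPM for Ensembl transcripts, made by the authors, in 12 libraries (3 for each of 4 groups), not counts. The labels' protocols name a SMART-Seq v4 low-input kit for cDNA, and describe extraction from human tissue although the samples are labelled mouse. The submitters' processing notes name kallisto 0.43.0 and GRCm38. The transcript annotation, filters and bias corrections they used are not stated there. kallisto shares reads among overlapping transcripts, so levels of single transcripts are less certain than summed levels.

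TPM of 115879 transcripts was summed to 46262 genes. Lengths and positions came from GENCODE M21, in which 98.6% of the transcripts were found. limma 3.58.1 (R 4.3.3) was fitted to log2(TPM + 1) with 4 group means, a variance trend and 8 residual degrees of freedom. Benjamini-Hochberg adjustment covered the 12419 genes that reached 1 TPM in 3 or more libraries, and a gene was called, or passed, at an adjusted p under 0.05, two-sided. There were 7 comparisons. This scale understates the change of low genes. "Over both" regions or ligands means the average of the 2 group differences. The fit was tested on simulated data. TPM keeps no depth, so no counting interval was computed, and the precision comes from the spread among 3 libraries.

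The 9 genes and the pathway and marker lists were chosen with earlier results of these data known. All 9 genes are named. From the pathway list, the text names genes that passed, at most 4 per role with the smallest p, plus Il1r1, Il1rap, Il18bp and P2rx7; some genes are not reported here. Transcripts are described where they made up at least 10% of the gene in a group. Alternatives were a pseudocount of 0.1, no filter, 2 other scalings, no variance trend, the compared libraries alone, a replicate block, each library left out, and transcripts of 1000 nt or more with and without removal of length and GC trends. A limit of 600 nt and leaving out the 3 cerebellar IL-34 libraries were added after seeing the data. No pair among 66 pairs of libraries was identical.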

Additional observations from a re-analysis of the deposited data

How the results depend on the processing

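Alternatives were followed for the 9 genes and for the pathway genes called in any comparison, not for the other pathway genes. No difference of the genes followed changed sign while called under any alternative. For the 13 called differences of the 9 genes, 225 of 282 alternative values kept the call and 57 lost it, and 33 values were newly called among the 50 uncalled differences. For the 30 called differences of the other pathway genes, 502 of 648 kept the call and 146 lost it. The number of the 9 genes called between ligands in forebrain (1) was 2 with median-of-ratios scaling, 2 with transcripts of 1000 nt or more, 2 with length and GC trends also removed, and 0 with the compared libraries alone. Of all 12419 genes, 149 were called there in the main fit, and 140 higher and 109 lower with median-of-ratios scaling. With the trends removed, 463 of 11125 genes were called higher and 429 lower. In cerebellum (2) the number of the 9 genes was 1 with no filter, 1 with the compared libraries alone, 1 with transcripts of 1000 or of 600 nt or more, and 3 with median-of-ratios scaling or with the trends removed. Among all genes, 1593 were called there in the main fit. That became 693 higher and 505 lower with median-of-ratios scaling, and 733 higher and 818 lower with the trends removed. Over both regions (3) the number of the 9 genes was 1 with no filter and 4 with median-of-ratios scaling or with the trends removed. Among all genes, 1667 were called in the main fit. That became 704 higher and 623 lower with median-of-ratios scaling, and 1019 higher and 1047 lower with the trends removed. Between cerebellum and forebrain under CSF-1 (1) the number of the 9 genes was 0 with no filter, 0 with the compared libraries alone, 2 with transcripts of 1000 nt or more and 4 with the trends removed. Calls among all genes rose with the trends removed as well, from 833 of 12419 to 807 higher and 997 lower of 11125. Under IL-34 (3) the number of the 9 genes was 1 with no filter, 0 with the compared libraries alone, 2 with transcripts of 600 nt or more and 4 with either other scaling. Among all genes, 1675 were called in the main fit. That became 971 higher and 1058 lower with median-of-ratios scaling, and 683 higher and 1167 lower with quantile normalization. Over both ligands (3) the number of the 9 genes was 5 with transcripts of 1000 nt or more, and 4 with either other scaling or with the trends removed. Among all genes, 2502 were called in the main fit. That became 1373 higher and 1490 lower with median-of-ratios scaling, 1134 and 1493 with quantile normalization, and 1451 and 1766 with the trends removed. Counts over all genes under the other alternatives are not given here. Apart from the length limits, which drop the Pycard transcript of 493 nt, and the compared libraries alone, which leave fewer samples, the cause of these changes was not tested. The limit of 1000 nt, with or without the trends removed, also drops Il18 (702 nt), so Il18 could not be called there. That limit further drops Il1rn transcripts of 636 and 728 nt and Casp4 transcripts of 752 and 871 nt. With 1 library left out in turn, the counts of the 9 genes ranged over 0 to 1, 1 to 2, 1 to 3, 0 to 1 (under CSF-1), 0 to 4 (under IL-34) and 3 to 5 (over both ligands), and that of the difference in response over 0 to 1. Without the 3 cerebellar IL-34 libraries the forebrain ligand count and the CSF-1 region count were each 1, as before. Median-of-ratios scaling moved the median of all genes by at most 0.10 (log2), and quantile normalization by less. No pairing by replicate number was detected over the 4 groups: 5 of 18 same-numbered pairs correlated above 0.1, and 2 of 12 libraries correlated best with their own number. Same-numbered libraries of forebrain IL-34 and cerebellum CSF-1 correlated at 0.458, 0.17 and 0.259. Those of forebrain CSF-1 and cerebellum CSF-1 gave -0.217, 0.245 and -0.454. A replicate block gave 1 gene in forebrain, 3 in cerebellum, with Il1b added (adjusted p = 0.046), 3 over both regions, 0 for the difference in response, 1 under CSF-1, 3 under IL-34 and 3 over both ligands. Depth is not known, so the precision of low genes such as Il1a and Il1b rests on 3 libraries a group.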
